A study of Saccharomyces cerevisiae W303 with 3 samples.

Results

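The genes described are the 10 core signaling components of the high osmolarity glycerol (HOG) pathway of budding yeast: the SLN1 branch genes SLN1, YPD1, SSK1, SSK2 and SSK22, the SHO1 branch genes SHO1, MSB2 and STE11, and the shared kinase genes PBS2 and HOG1. They were chosen by name, with earlier results of these data known. All 10 were found among the 6252 genes used on the arrays, each with 1 probe printed in 2 spots. RNA of 3 independent continuous cultures of the haploid laboratory strain W303, called Replicates 1, 2 and 3, was compared after 240 generations and after 40 generations of growth at 30 °C in minimal medium with glycerol and a little glucose, with no nutrient limiting and with the antibiotics ampicillin and streptomycin added against bacteria at both time points. The question was which transcripts change slowly in a population kept in a constant environment. The RNA of each culture was hybridized to 2 two-color arrays, once with 240 generations in Cy3 and once with 240 generations in Cy5. At both time points the strain carries the W303 marker mutations in leu2, trp1, can1, ura3, ade2 and his3, and its mating type is given as MATa. By the sequencing described with the cultures, which was not analysed here, the evolved populations of Replicates 1 and 2 carry mutations in HOG1, those of Replicates 1 and 3 in MSY1, and that of Replicate 2 in URE2. Each value is the average over a whole population, so fewer cells that express a gene and less RNA per cell cannot be told apart.

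The HOG pathway is the mitogen-activated protein (MAP) kinase cascade by which yeast answers a rise in external osmolarity. In the SLN1 branch, the membrane histidine kinase Sln1 keeps the response regulator Ssk1 phosphorylated through the carrier protein Ypd1, and Ssk1 freed of phosphate activates the kinases Ssk2 and Ssk22. In the SHO1 branch, the mucin-like sensors Msb2 and Hkr1 act with the membrane protein Sho1 and the kinase Ste11, which also serves the mating and filamentous growth cascades. Both branches meet at the kinase Pbs2, which phosphorylates the MAP kinase Hog1, and active Hog1 turns on genes of glycerol synthesis and stress defense.

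HOG1 itself had the largest difference of the 10 genes: its transcript was 2.18-fold lower at 240 generations than at 40 generations. Its direct activator PBS2 was also lower, by a smaller amount, as was the response regulator SSK1, whose signal lay near background. SHO1 and MSB2, genes of membrane proteins of the other branch, were higher. HKR1, a sensor gene of that branch outside the 10, was lower (mean log2 ratio -0.77). In counts, 2 of the 10 genes rose, 3 fell and 5 did not pass the test (limma, with Benjamini-Hochberg adjustment over the 5374 genes tested). SSK1, 1 of the 3, entered the test through its signal at 40 generations, where it was higher, and without it 2 of 9 fell. At an unadjusted p under 0.05 the same 5 genes passed, beside 43.6% of all genes tested. Over all genes tested and after adjustment, 14.1% were called higher, 14% were called lower and 28.1% were called in either direction. The median of the 10 mean log2 ratios of 240 over 40 generations was -0.08, beside a median of -0.01 for all genes tested, whose middle range between the quartiles ran from -0.31 to 0.28. In all 3 cultures SSK1, SSK2, PBS2 and HOG1 were below 0 and SHO1 and MSB2 above 0, as were 32.7% and 31% of all genes tested, and 5 of the 10 genes had one sign on all 6 arrays, beside 53.6% of all genes tested. Removing a trend with gene length, described further on, turned the median of the 10 genes to 0.08. Within cultures the median of the 10 was -0.09, -0.19 and -0.08 in Replicates 1, 2 and 3.

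**Figure D1:**
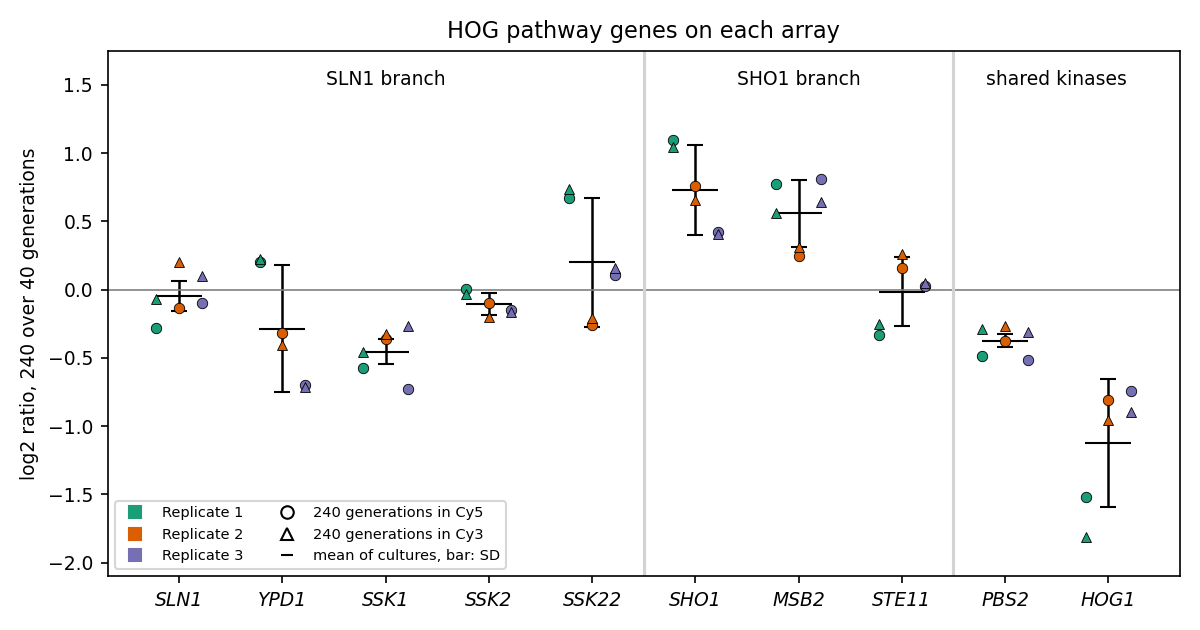
Log2 ratio of 240 over 40 generations of each of the 10 genes on each of the 6 arrays, grouped by branch; colors give the culture, circles the arrays with 240 generations in Cy5 and triangles those with 240 generations in Cy3, and the horizontal lines and bars are the mean and SD of the 3 cultures. All 6 arrays lie above 0 for SHO1 and MSB2 and below 0 for SSK1, PBS2 and HOG1.

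The median intensity of an array was 518 to 916 in Cy5, where the background lay at 40 to 60, and 577 to 1027 in Cy3, where it lay at 54 to 68. A gene was taken as above background when both of its spots exceeded the local background by more than 2 of its SDs, and 81.8% to 87.3% of genes met this at 240 generations, against 77.5% to 88.5% at 40 generations. The log2 ratios of the dye-swap arrays correlated across genes, which are not independent replicates, with r = 0.96, 0.95 and 0.95 in Replicates 1, 2 and 3. No member had a saturated spot. The 2 spots of a probe differed in intensity by more than 3-fold for 2.42% to 13.6% of the genes tested, least on the arrays of Replicate 2, and among the 10 genes this held for SHO1 and MSB2 on the 4 arrays of Replicates 1 and 3, for STE11 on these and 1 array of Replicate 2, and for SLN1 on 1 array of Replicate 3. Of the 10 genes, 8 were above background at both time points on all arrays, and the exceptions were SSK1 and STE11.

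The stated mating type did not hold against its markers. Of the 5 a-specific genes looked up, the pheromone gene MFA2 and the protease gene BAR1 were above background on 0 arrays at either time point, MFA1 on 0 arrays at 240 generations and 1 array at 40 generations, and the receptor gene STE2 on 1 array at 240 generations and 4 arrays at 40 generations, while the exporter gene STE6 was above it on all 6 arrays at both. The alpha-specific genes MF(ALPHA)1 and STE3 were above background on all 6 arrays at both time points. Of the 4 alpha-specific genes, MF(ALPHA)2 (mean log2 ratio 2.46), SAG1 (1.42) and STE3 (0.78) also rose between the time points, with adjusted p = 0.0048, 0.021 and 0.026, and MF(ALPHA)1 had 0.38 with adjusted p = 0.080. Their share called higher, 75%, stands beside 14.1% of all genes tested, and of the 2 a-specific genes tested 0 were called. The cultures are therefore called W303 below, with no mating type, and the part of the mating type in the values of STE11 and of the mating cascade was not tested.

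Among the SLN1 branch genes, only SSK1 was called. SLN1, the gene of the sensor kinase, had intensities after background subtraction of 561 and 385.5 at 240 generations, against 685.5 and 768 at 40 generations, on the arrays of Replicate 1, of 841 and 508.5 against 777 and 857 on those of Replicate 2, and of 850.5 and 744.5 against 741.5 and 889 on those of Replicate 3, each pair with 240 generations in Cy3 first. These raw values carry the dye difference that the loess curve later removes, and the time points overlap. The log2 ratios of SLN1 were -0.18, 0.03 and 0.00 in Replicates 1, 2 and 3, a mean of -0.05 ± 0.11 (SD, n = 3, adjusted p = 0.77) with a 95% confidence interval of -0.33 to 0.23.

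YPD1, the gene of the carrier between Sln1 and Ssk1, went different ways in different cultures. Its log2 ratios were 0.22 and 0.20 on the 2 arrays of Replicate 1, -0.41 and -0.32 on those of Replicate 2 and -0.72 and -0.70 on those of Replicate 3. The raw intensities were 511 and 394.5 at 240 generations, against 488.5 and 542 at 40 generations, in Replicate 1, 412 and 324 against 595.5 and 640 in Replicate 2, and 388 and 384.5 against 633.5 and 731.5 in Replicate 3. The arrays of a culture stayed within 0.09 of each other, and the 3 cultures did not overlap. The mean over cultures, -0.29 ± 0.46, did not pass (adjusted p = 0.29). Without Replicate 1, the culture that went the other way, it was -0.53, with adjusted p = 0.0094. That setting rests on 2 cultures and was looked at with the values known. In it 1215 of all genes were called higher and 1244 lower, against 757 and 754 with all cultures.

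SSK1, the response regulator that activates the next kinases, fell by 0.45 on the log2 scale (± 0.09, adjusted p = 0.033), with ratios of -0.52, -0.35 and -0.50 in Replicates 1, 2 and 3. Its spots were dim. The intensities over background were 46.5, 38, 77, 51.5, 68 and 72 at 240 generations, against 98.5, 139, 99, 129.5, 65 and 171.5 at 40 generations, on the arrays of Replicates 1, 2 and 3 in turn. The first array of Replicate 3 was the one without a lower raw value at 240 generations. At 240 generations SSK1 exceeded background on 3 of 6 arrays, against 5 of 6 at 40 generations, so that it met the minimum of 4 arrays only at 40 generations, and the authors' own log2 ratios for it were larger in size, at -1.23, -0.69 and -1.1. SSK1 no longer passed without Replicate 2 (adjusted p = 0.16), without Replicate 3 (0.16), with the time points unpaired (0.12), with arrays of 240 generations in Cy3 alone (0.070) and with median centring (0.051).

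SSK2 and SSK22 encode paralogous kinases that both act on Pbs2. SSK2 had intensities of 2270.5 to 4027.5 at 240 generations, against 3207.5 to 4881.5 at 40 generations, and varied little, with log2 ratios of -0.01, -0.15 and -0.15 (mean -0.10 ± 0.08, adjusted p = 0.50, 95% confidence interval -0.37 to 0.17). SSK22 varied most among the 10 genes, with 0.74 and 0.67 on the arrays of Replicate 1, -0.21 and -0.26 on those of Replicate 2, and 0.16 and 0.11 on those of Replicate 3. The intensities of SSK22 in Replicate 1 were 2388 and 2011.5 at 240 generations, against 1623.5 and 1857.5 at 40 generations, in Replicate 2 they were 1387 and 1121 against 1750 and 1981, and in Replicate 3 they were 2486.5 and 2640.5 against 2213.5 and 2656. In Replicate 1 the transcript was thus higher at 240 generations on both arrays and in Replicate 2 lower on both. Its mean of 0.20 ± 0.47 did not pass (adjusted p = 0.46). The probe sequences were not at hand, so whether the probes tell the paralogs apart was not examined.

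In the SHO1 branch both membrane components rose. SHO1, the gene of the membrane anchor that brings Pbs2 and Ste11 together, had intensities of 872.5 and 719.5 at 240 generations, against 403 and 418.5 at 40 generations, in Replicate 1. In Replicate 2 they were 1069.5 and 747.5 against 693.5 and 621.5, and in Replicate 3 they were 1081 and 1025.5 against 701.5 and 657.5. These are means of unlike spots: the first spot read 95 to 775 at 240 generations, against 71 to 525 at 40 generations, and the second 1097 to 1956 against 677 to 1229. Both spots had more signal at 240 generations on every array, although across arrays the time points overlap on each spot. The log2 ratios of SHO1 were 1.07, 0.71 and 0.41 in Replicates 1, 2 and 3, with a mean of 0.73 ± 0.33 (1.66-fold higher, 95% confidence interval 0.35 to 1.11, adjusted p = 0.023). Of all genes tested, 5.45% had a higher mean. SHO1 no longer passed without Replicate 2 (log2 ratio 0.74, adjusted p = 0.12) and with the time points unpaired (adjusted p = 0.069). In Replicate 3 the ratio of a single spot ran from 0.07 to 0.78, and with the brighter spot of each probe alone SHO1 had 1.25, 0.78 and 0.67 in Replicates 1, 2 and 3 (mean 0.90, adjusted p = 0.013).

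MSB2, the gene of the mucin-like sensor, had 1049.5 and 1103 at 240 generations, against 758 and 968 at 40 generations, in Replicate 1. In Replicate 2 it had 2133.5 and 1312.5 against 1862.5 and 1626, and in Replicate 3 it had 1083 and 1516.5 against 571 and 903.5. The raw signal was higher at 240 generations on 5 of the 6 arrays, and the ranges overlap. The first spot was dim in Replicates 1 and 3, with 194 to 405 at 240 generations, against 92 to 320 at 40 generations, and bright in Replicate 2, with 1886 and 862 against 1614 and 1049. After normalization all 6 arrays were above 0, with culture values of 0.67, 0.28 and 0.73 and a mean of 0.56 ± 0.24 (1.47-fold higher, 95% confidence interval 0.23 to 0.89, adjusted p = 0.032). MSB2 no longer passed without Replicate 2 (0.70, adjusted p = 0.095), without Replicate 3 (0.47, adjusted p = 0.14) and with the time points unpaired (adjusted p = 0.41), and with the brighter spot alone it had 0.58 (adjusted p = 0.038).

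STE11, the kinase gene that the SHO1 branch shares with the mating and filamentous growth cascades, had log2 ratios of -0.29, 0.21 and 0.04 (mean -0.01 ± 0.26, adjusted p = 0.95, 95% confidence interval -0.35 to 0.32). Its 2 spots, which carry the same probe, were unlike in brightness. On the first array of Replicate 1, one spot read 34 at both time points while the other read 816 at 240 generations and 1257 at 40 generations, and on the second array of Replicate 2 they read 657 and 1140 at 240 generations against 930 and 1443 at 40 generations. The dimmer spot kept STE11 from counting as above background on 3 arrays of 6 at 240 generations, and on 2 arrays of 6 at 40 generations. The brighter spot alone gave -0.38 and -0.41 in Replicate 1, 0.32 and 0.22 in Replicate 2, and 0.24 and 0.22 in Replicate 3, so the cultures kept different signs.

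The shared kinase genes were both lower. PBS2, the MAP kinase kinase at which the branches meet, had intensities of 1069 and 797 at 240 generations, against 1532 and 1757 at 40 generations, in Replicate 1. In Replicate 2 they were 1374 and 949.5 against 1812 and 1858.5, and in Replicate 3 they were 2268.5 and 2277 against 2840.5 and 3582. Within each culture both arrays were lower at 240 generations, although Replicate 3 was brighter throughout and its values at 240 generations exceed those of the other cultures at 40 generations. The log2 ratios of PBS2 were -0.39, -0.32 and -0.41, the narrowest spread of the 10 genes, and the mean was -0.37 ± 0.05 (1.3-fold lower, 95% confidence interval -0.64 to -0.11). Its adjusted p of 0.049 lies at the edge of the threshold of 0.05, and 19 alternatives gave log2 ratios of -0.47 to -0.29, of which 11 did not pass, among them those without Replicate 2 (adjusted p = 0.24), without Replicate 3 (0.24) and with the gene length trend removed (0.058).

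HOG1, the MAP kinase gene, had intensities of 1293 and 1338.5 at 240 generations, against 5706.5 and 5798.5 at 40 generations, in Replicate 1. In Replicate 2 they were 2994.5 and 2534 against 6747 and 6300, and in Replicate 3 they were 3313 and 4296 against 6779 and 7876.5. The time points did not overlap: the highest value at 240 generations, 4296, was below the lowest at 40 generations, 5706.5. Replicate 1 stood lowest at 240 generations, while at 40 generations the cultures lay closer together in relative terms.

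**Figure D2:**
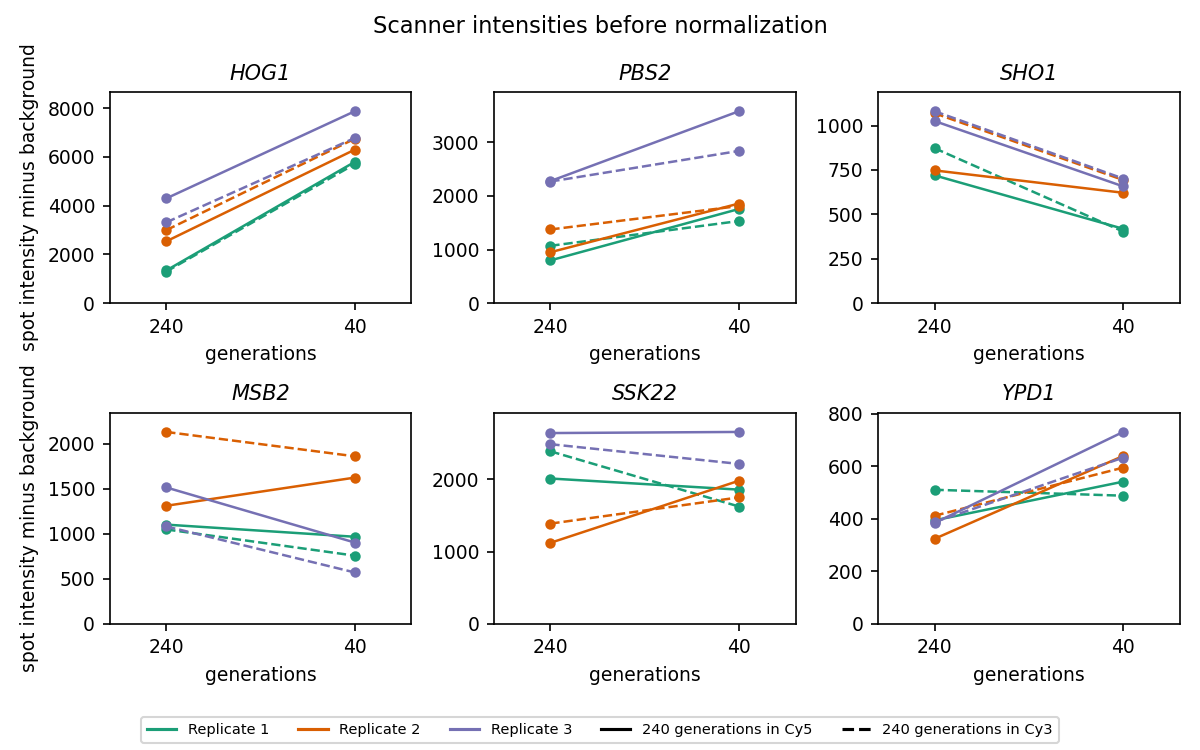
Spot intensity minus local background (arbitrary scanner units, mean of the 2 spots, before normalization) of HOG1, PBS2, SHO1, MSB2, SSK22 and YPD1 at 240 and at 40 generations; each line is 1 array, solid with 240 generations in Cy5 and dashed with 240 generations in Cy3, and colors give the culture. For HOG1 every value at 240 generations lies below the range at 40 generations, for SHO1 each array is higher at 240 generations, and for SSK22 the lines run in different directions in different cultures.

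The log2 ratios of HOG1 were -1.66, -0.88 and -0.82 in Replicates 1, 2 and 3, and its single spots ranged from -1.83 to -1.49 in Replicate 1, from -0.99 to -0.80 in Replicate 2 and from -0.91 to -0.72 in Replicate 3. Replicate 1 was thus lower than the others on every spot. The spots of Replicate 2, given as carrying HOG1 mutations, overlapped with those of Replicate 3, not so given, only across dye orientations. With 240 generations in Cy3 they were -0.93 and -0.99 in Replicate 2 against -0.91 and -0.89 in Replicate 3. With 240 generations in Cy5 they were -0.82 and -0.80 against -0.72 and -0.78. The part of the mutations was not tested. The mean was -1.12 ± 0.47 (95% confidence interval -1.60 to -0.65, adjusted p = 0.014), and 2.47% of the genes tested had a lower mean. The call held in 18 of 19 alternatives and not when Replicate 2 was left out (log2 ratio -1.24, adjusted p = 0.055). On the re-analysed values, with limma's p, HOG1 was also the only one of the 10 genes to meet the 4 criteria of the study. These ask for a mean log2 ratio of 0.9 or more in size and p no higher than 0.05. They also ask for SD no higher than 0.8, and SD divided by the square of the mean no higher than 0.4. That last quotient was 0.37 for HOG1, and 3.39% of the genes tested met these criteria in the lower direction. By the authors' own ratios, SSK1 (mean -1.01, limma adjusted p = 0.012) and SHO1 (0.97, adjusted p = 0.014) also passed 0.9 in size. The 3 ratios of SHO1 were 1.335, 0.8315 and 0.735, and those of SSK1 are given above. Their spread lies within both limits on the SD as well, so HOG1 was not the only one on those ratios.

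**Figure D3:**
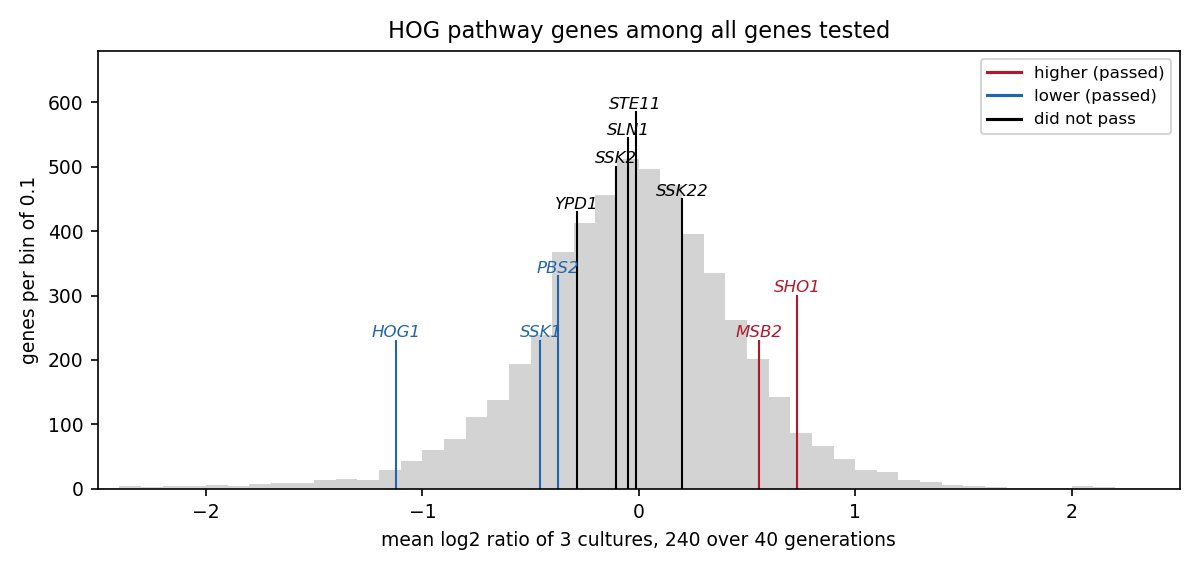
Histogram of the mean log2 ratio of 240 over 40 generations of the genes tested (gray, bins of 0.1), with vertical lines at the 10 HOG pathway genes, red for higher, blue for lower and black for genes that did not pass; the height of the lines has no meaning. HOG1 at -1.12 lies in the lower tail, SHO1 at 0.73 and MSB2 at 0.56 lie on the upper flank, and SLN1, SSK2 and STE11 lie at the center.

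The ends of the pathway can be set side by side within each culture. The log2 ratio of SHO1 exceeded that of HOG1 by 2.73, 1.59 and 1.24 in Replicates 1, 2 and 3, and that of PBS2 exceeded that of HOG1 by 1.28, 0.56 and 0.41. The difference in log2 ratio between SSK22 and SSK2 was 0.72, -0.09 and 0.29. The first 2 differences kept their sign in the 3 cultures and the last did not, and none was tested, since they were chosen from values already seen.

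Cultures differed at several of these genes. Each culture is 1 sample, so these differences were not tested, and the 2 arrays of a culture carry the same RNA. Both arrays of Replicate 1 lay above the 4 other arrays for YPD1, SSK2, SSK22 and SHO1, as they did for 28% of all genes tested, and below them for STE11 and HOG1, as for 31.4%. Both arrays of Replicate 2 lay below the others for SSK22 and MSB2 (13.7% of all genes tested) and above them for STE11 (13.5%). Both arrays of Replicate 3 lay below the others for YPD1 and SHO1 (17.6%) and above them for none of the 10 (17.4%). At a size of 0.5 or more in log2 ratio, Replicate 1 had 2 of the 10 genes lower and 3 higher (20.5% and 17.2% of all genes tested), Replicate 2 had 1 and 1 (13.5% and 13%), and Replicate 3 had 2 and 1 (14.6% and 14.2%). The range between the highest and the lowest culture had a median of 0.47 over the 10 genes, beside 0.41 over all genes tested, and was widest for SSK22 (0.94), YPD1 (0.92) and HOG1 (0.84).

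Gene length moved with these culture differences. Across all genes tested, the difference of a culture from the other cultures had a Spearman correlation with gene length of -0.37, 0.09 and 0.44 for Replicates 1, 2 and 3. The 10 genes range from YPD1, 504 bases long in the RefSeq annotation, and SHO1, 1104 bases, through HOG1, 1308 bases, to MSB2, 3921 bases, SSK22, 3996 bases, and SSK2, 4740 bases. With the trend removed within each culture, HOG1 had -1.66, -0.93 and -0.90, SHO1 had 1.01, 0.66 and 0.36, and MSB2 had 0.96, 0.44 and 0.83 in Replicates 1, 2 and 3. YPD1 then had 0.04, -0.37 and -0.59, and SSK22 had 1.0, -0.07 and 0.24. The cultures kept their order for these 5 genes except MSB2, for which Replicate 1 was then the highest, and HOG1, SHO1, MSB2 and SSK1 kept their calls while PBS2 did not.

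The genes beside HOG1 in the RefSeq order did not share its value. YLR111W (0.34 ± 0.52) and YLR112W (0.49 ± 0.50) on one side and AVL9 (0.26 ± 0.03) on the other did not pass the test. The 5 tested genes whose 3 culture values came closest to those of HOG1, by the root mean square of the differences in log2 ratio, were KRE6 (0.063), a gene of glucan synthesis in the cell wall, PDR1 (0.096), a regulator of drug resistance genes, RPL38 (0.11), a ribosomal protein gene, ECM21 (0.11), an adaptor for ubiquitin ligase, and SDH9 (0.12). KRE6, the closest, had -1.61, -0.90 and -0.73 in Replicates 1, 2 and 3.

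Of 27 further genes of the pathway, 26 were tested, 2 rose, 4 fell and 20 did not pass, and their median was -0.06. The shares, 7.69% higher and 15.4% lower, stand beside 14.1% and 14% of all genes tested. Among the 9 other upstream components, only HKR1 passed. HKR1, which like MSB2 encodes a mucin-like sensor of the SHO1 branch, had -0.75, -0.83 and -0.74 in Replicates 1, 2 and 3 (mean -0.77 ± 0.05, adjusted p = 0.0083). The sensor genes thus went opposite ways, with HKR1 lower and MSB2 higher at 240 generations in each culture. OPY2, the membrane anchor of the Ste11 complex, is named because its values stood out once seen: -1.09 in Replicate 1, 0.54 in Replicate 2 and 0.41 in Replicate 3 (adjusted p = 0.93).

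Among the 6 negative regulators, the phosphatase gene PTP2, whose protein acts on Hog1, fell (-0.53, -0.40 and -0.55, adjusted p = 0.025), and NBP2, an adaptor that brings the phosphatase Ptc1 to Pbs2, rose (0.72, 0.27 and 0.42, adjusted p = 0.048). Of the 8 effectors tested, the transcription factor gene MSN1 rose (0.77, 0.46 and 0.36, adjusted p = 0.033), and the transcription factor genes MSN2 (-0.59, -0.28 and -0.52, adjusted p = 0.037) and SKN7 (-0.82, -0.44 and -0.25, adjusted p = 0.0495) fell, while RCK1 was above background on 0 arrays and was not tested. Of the 3 genes of the glycerol channel, 0 passed limma's test with or without adjustment, with ASK10, a regulator of the channel, at -0.27 ± 0.15 and FPS1, the channel itself, at 0.21 ± 0.09. With the time points unpaired, none of the 6 further genes called (HKR1, PTP2, NBP2, MSN1, MSN2 and SKN7) passed, while HOG1 did. In the main analysis HKR1 had a lower adjusted p than HOG1 (0.0083 against 0.014). HOG1 in turn did not pass without Replicate 2 (adjusted p = 0.055).

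**Figure D4:**
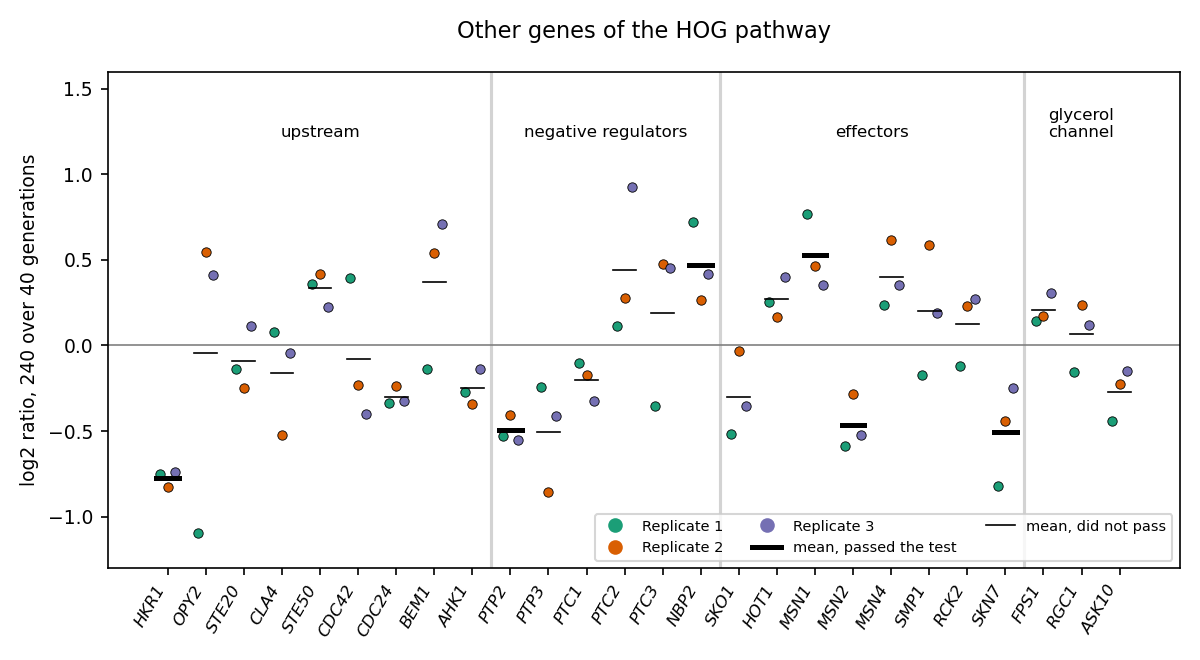
Log2 ratio of 240 over 40 generations of the 26 further HOG pathway genes tested, by role; points are cultures, horizontal lines are means, and thick lines mark genes that passed the test. HKR1, PTP2, MSN2 and SKN7 lie below 0 and NBP2 and MSN1 above 0, and OPY2 has Replicate 1 apart from the other cultures.

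Genes known to be induced through Hog1 were lower, with one exception. Of 15 tested, 14 fell and 1, GCY1, rose, with a median of -1.51. The shares, 93.3% lower and 6.67% higher, stand beside 14% and 14.1% of all genes tested. STL1, 1 of the 14, entered the test through its signal at 40 generations, where it was higher. It was above background on 3 of 6 arrays at 240 generations, against 6 of 6 at 40 generations. The list shares genes with those the study singled out on these samples, so its count is not independent evidence. The largest differences were those of the hydrophilin gene GRE1 (-4.80, -4.36 and -3.93 in Replicates 1, 2 and 3), the sodium pump gene ENA1 (-2.90, -2.32 and -1.98), the reductase gene GRE2 (-2.40, -2.16 and -2.22) and the catalase gene CTT1 (-2.58, -1.84 and -1.46).

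Of the cascades that share components with the HOG pathway or run beside it, none was compared with another by a test. In the pheromone cascade, 1 of 15 genes rose (6.67%, beside 14.1% of all genes tested), the transcription factor gene STE12 (0.29, 0.56 and 1.02, adjusted p = 0.040). None fell, beside 14% of all genes tested, and the median was 0.24. Of the filamentous growth outputs, TEC1, the partner of Ste12 in filamentous growth, rose (0.88, 1.07 and 1.1, adjusted p = 0.0047), as did SVS1 (0.86, 0.17 and 0.80, adjusted p = 0.045), FLO11 did not pass (-0.15 ± 0.35) and PGU1 was not tested. In the cell wall integrity cascade, 6 of the 13 genes tested fell, 1 rose and the median was -0.44. The shares, 46.2% lower and 7.69% higher, stand beside 14% and 14.1% of all genes tested. The sensor genes MTL1 (-1.25 ± 0.27) and MID2 (-0.76 ± 0.55) and the transcription factor gene RLM1 (-0.70 ± 0.16) fell, and the sensor gene WSC2 rose (0.86 ± 0.38), with adjusted p = 0.0048, 0.047, 0.013 and 0.018.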

How the data were processed

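Arrays were Agilent Yeast (v2) slides. The deposited scanner files hold each spot's median and mean intensity, its local background, a flag score and the saturated pixels in percent, extracted by the authors in GenePix Pro 6.1 without normalization. The deposited log2 ratios, which the authors computed with Acuity 4.0 by a method not given in the sources used here and averaged over the dye swap, served as an alternative (exact zeros treated as missing). Dyes were taken from the file names, and the ratios so made correlated with the authors' at r = 0.97, 0.98 and 0.98.

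In R 4.3.3 with limma 3.58.1, medians were corrected with normexp (offset 50), normalized by loess with control spots at weight 0, turned to 240 over 40 generations and averaged over the 2 spots and then the 2 arrays of a culture. Genes that exceeded background at either time point on 4 or more arrays were tested against 0 (lmFit, eBayes, prior degrees of freedom 3.79) with Benjamini-Hochberg adjustment, and the number of cultures limits the precision. The 240 and 40 generation RNA of a culture are paired on its arrays. The script was tested on simulated data. Spots flagged as not found (963 to 1730 per array) were kept, and 4 genes with emptied lines were left out. Gene lengths (5753 genes matched) and order are from RefSeq R64, and the files name no build.

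The members and gene lists were chosen with earlier results of these data known. Named are all members, in each other list the 4 largest calls or, without calls, the 2 largest values, the 5 genes most like HOG1, and the mating-type markers. WSC1 was matched by its systematic name. Alternatives changed the background (none, plain subtraction), the pixels (mean), the scaling (median centring, between-array scaling), the probes (not-found spots dropped, no filter on dim probes, a strict one), the prior (trended, robust) and the samples (one dye orientation, unpaired time points, without each replicate), or used the authors' ratios, a gene length trend removed (lowess span 0.5) and, chosen after seeing the data, above background on either spot and the brighter spot of each probe alone. The unpaired setting also quantile-normalized the average intensities between arrays and used the dye channels separately, so it changed more than the pairing. qRT-PCR and genome sequences were not analysed here.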

Additional observations from a re-analysis of the deposited data

How the results depend on the processing

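No alternative reversed HOG1, SHO1, MSB2, SSK1 or PBS2. With the time points unpaired (no replicate block, and with quantile normalization between arrays), 0 members were called higher and 1 lower, against 2 and 3, 0 and 0 of the further pathway genes, against 2 and 4, and 205 and 258 of all genes, against 757 and 754. Leaving out 1 replicate gave 0 to 2 members higher and 0 to 4 lower, 0 to 9 and 0 to 6 further genes, and 115 to 1215 and 159 to 1244 of all genes, each lowest without Replicate 2 and highest without Replicate 1 (further genes called higher were 0 without Replicate 3 too). Where limma called 0, genes passed at an unadjusted p under 0.05: unpaired, 1 member higher, 1 further gene higher and 3 lower, and without Replicate 2, 2 members higher, 2 lower, 2 further genes higher and 3 lower. Members called lower were 1 with a strict filter, under which SSK1 and STE11 were not tested, and 1 with 240 generations in Cy3 alone. Further genes called higher were 1 with no background correction, plain subtraction, mean pixels, no filter, the strict filter or the authors' ratios and 0 with median centring (4 at an unadjusted p), and 2 were called lower with plain subtraction. The median of the members was -0.17 with median centring, which moved that of all genes to -0.07, and 0.0789 with the length trend removed.

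Of the 5 genes that did not pass, 4 changed sign and YPD1 did not. SLN1 was 0.0771 with 240 generations in Cy3 alone, 0.125 with the length trend removed and -0.0872 to 0.0166 with 1 replicate left out. SSK2 was 0.119 with the length trend removed. SSK22 was -0.0502 to 0.419 with 1 replicate left out. STE11 was 0.0217 with spots not found left out, 0.0213 with 240 generations in Cy3 alone, 0.0390 with the length trend removed, 0.0360 with the brighter spot alone and -0.127 to 0.124 with 1 replicate left out. For SLN1, SSK22 and STE11 the sign turned without Replicate 1. The cause was not tested. Dim spots limit SSK1 and STE11, unlike spots limit SHO1 and MSB2 too, and 3 cultures limit every call.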
